A study of Mus musculus with 2 samples.

Results

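The genes described are 9 members of the cytosolic heat shock system, out of 27998 features in the matrices, followed through the cells of the mouse cornea and limbus: the small heat shock protein genes Hspb8, Hspb1 and Cryab, the HSP70 genes Hspa1a, Hspa1b and Hspa8, and the co-chaperone genes Dnajb1, Hsph1 and Bag3. They were found by their symbols, and each symbol matched 1 feature. The genes were chosen by their levels over the cell sets of these same 2 libraries, so those levels are descriptions. Levels were read over 5 sets of cells, called gates here and set by thresholds on the counts per 1000000 UMIs (CPM) of single cells. A UMI is a molecular tag that marks 1 captured RNA molecule. Limbal cells had at least 500 CPM of Gpha2 and 2000 CPM of the keratin gene Krt14. Basal cells had at least 2000 CPM of Krt14 and 8000 CPM of the corneal keratin gene Krt12. Wing cells had at least 20000 CPM of Krt12 and less than 2000 CPM of Krt14. Surface cells had at least 1000 CPM of the cornified envelope gene Lce3a, and stromal cells at least 5000 CPM of Dcn, which encodes the collagen-binding proteoglycan decorin.

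Heat shock proteins hold unfolded proteins in a state from which they can be refolded or degraded. Small heat shock proteins bind such clients without ATP, HSP70 proteins fold them in cycles of ATP hydrolysis, and co-chaperones load clients onto HSP70 or release nucleotide from it. HSPB8 and BAG3 form a complex that passes clients to selective autophagy, the degradation route in which Beclin 1 acts, and αB-crystallin, the product of Cryab, is abundant in the lens and is also made in corneal cells.

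The 2 libraries came from the cornea and limbal rim of 1 wild-type and 1 Beclin1 +/- mouse, female littermates of 28 days on a C57BL/6 background. Lens, retina, iris and trabecular meshwork had been taken out and most of the conjunctiva cut away, and the rims were dissociated with collagenase A for 2 hours and then with trypsin, at 37 °C. With 1 animal and 1 library per genotype there is no replicate, no test and no p-value, and genotype, animal and library cannot be told apart. Intervals are 95% intervals for counting error only. The libraries are called wild-type and heterozygote as labelled: Becn1, the targeted gene, read from its 3′ end, stood at 46.0 CPM in limbal, 39.9 CPM in basal and 30.2 CPM in stromal cells of the wild type, and at 41.3, 39.8 and 34.2 CPM in the heterozygote. The intervals of its ratio included 0 on the log2 scale in all 5 gates. How the allele was made is not stated, so Becn1 counts do not check the label.

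The wild-type library held 2513 barcodes with a median of 16967 UMIs and the heterozygote library 5155 with a median of 11571. The shallowest barcode had 8089 and 5430 UMIs, so cells below 8089 UMIs were held by the heterozygote matrix only. Of the barcodes, 15 occurred in both libraries. After removal of likely doublets, the limbal gate held 231 wild-type and 367 heterozygote cells, the basal gate 859 and 1543, the wing gate 519 and 979, the surface gate 54 and 117, and the stromal gate 556 and 1337. A further 304 and 725 cells met no rule, and 61 and 126 met more than 1, of which 45 and 103 met both the limbal and the basal rule. Markers that had not set the gates followed the surface and stromal gates. The summed level of Psca, Upk1b, Krt78, Sprr1b and Cldn4 was 41538 and 36839 CPM in surface cells and at most 5031 CPM elsewhere, although Sprr1b was at 0 in wild-type surface cells, and that of Lum, Kera, Col1a1, Col1a2 and Aldh1a1 was 51965 and 46269 CPM in stromal cells and at most 510.2 CPM elsewhere. Krt15, a limbal keratin gene, was at 5020 and 4019 CPM in limbal and 842 and 952 CPM in basal cells. Summed with Ifitm3, Cd63 and Lrig1, it reached 6618.6 and 5849.5 CPM in limbal cells. That sum was 1285.4 and 1509.5 CPM in basal and 1806.1 and 2553.7 CPM in wing cells. In stromal cells it was 5042.4 and 5392.9 CPM, so the limbal list as a whole set limbal cells little apart from stromal ones. The conjunctival genes Krt4, Krt13, Krt19 and Krt8 summed to 936 and 464 CPM in limbal and 2203 and 2287 CPM in surface cells, and their part in the levels given here was not tested. Free RNA was present: stromal cells held 872 and 1259 CPM of Krt12, which is 4.16% and 6.28% of its basal level.

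Heat shock transcription factors bind inverted repeats of the unit GAA. The promoters of 7 of the 9 genes were at hand in RefSeq (GRCm38.p6, 250 bases before to 50 after the start). A match to 2 units, GAANNTTC or TTCNNGAA, which covers both strands, was found for 6 of the 7, against 15.1% of the 32851 mouse promoter windows. A match to 3 units, in which GAANNTTC is followed by NNGAA or TTCNNGAA by NNTTC so that it holds 2 overlapping matches to 2 units, was found for Hsph1 alone, against 0.603% of windows. Counted by gene, as the members were, the shares were 17.0% for 2 units and 0.662% for 3 units, over 27025 genes. Dnajb1 had neither in this window. The bases before the start of the inducible genes Hspa1a and Hspa1b and of Hspb1 are shown because they let the 2 gene copies be compared and show where matches lie, with the matches to 2 units in capitals:
Hspa1a, chr17:34972157-34972406, minus strand: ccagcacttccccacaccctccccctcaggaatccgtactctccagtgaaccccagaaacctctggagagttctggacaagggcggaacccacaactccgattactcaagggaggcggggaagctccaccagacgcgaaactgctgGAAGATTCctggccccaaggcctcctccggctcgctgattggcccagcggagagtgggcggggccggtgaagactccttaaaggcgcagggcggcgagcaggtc
Hspa1b, chr17:34959239-34959488, minus strand: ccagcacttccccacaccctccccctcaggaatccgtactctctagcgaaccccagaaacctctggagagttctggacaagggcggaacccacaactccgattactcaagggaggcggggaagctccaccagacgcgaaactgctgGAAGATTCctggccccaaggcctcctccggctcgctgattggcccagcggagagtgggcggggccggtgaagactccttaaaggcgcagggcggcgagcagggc
Hspb1, chr5:135887669-135887918, plus strand: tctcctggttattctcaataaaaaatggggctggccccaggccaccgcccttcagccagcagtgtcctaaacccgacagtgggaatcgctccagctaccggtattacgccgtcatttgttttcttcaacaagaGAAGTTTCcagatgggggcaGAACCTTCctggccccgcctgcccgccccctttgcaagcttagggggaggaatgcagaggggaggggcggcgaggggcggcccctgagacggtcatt

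The Hspa1a and Hspa1b windows were identical at 296 of 300 positions (98.7%), and in both the match began 104 bases before the start. In Hspb1 matches began 117 and 97 bases before it. In Hspb8, Hsph1 and Bag3 matches lay just past the start, and Hsph1 had a further 2-unit match 33 bases before it. The windows that hold these matches are short enough to be read side by side, and the capitals again mark the match, which in Hsph1 is the one to 3 units:
Hspb8, chr5:116422844-116422873, minus strand: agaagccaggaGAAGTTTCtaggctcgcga
Hsph1, chr5:149636287-149636316, minus strand: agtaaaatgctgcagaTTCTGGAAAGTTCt
Bag3, chr7:128523603-128523632, plus strand: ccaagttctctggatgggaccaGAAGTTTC

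A match in letters describes the window and does not show that a factor binds there.

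**Figure D1:**
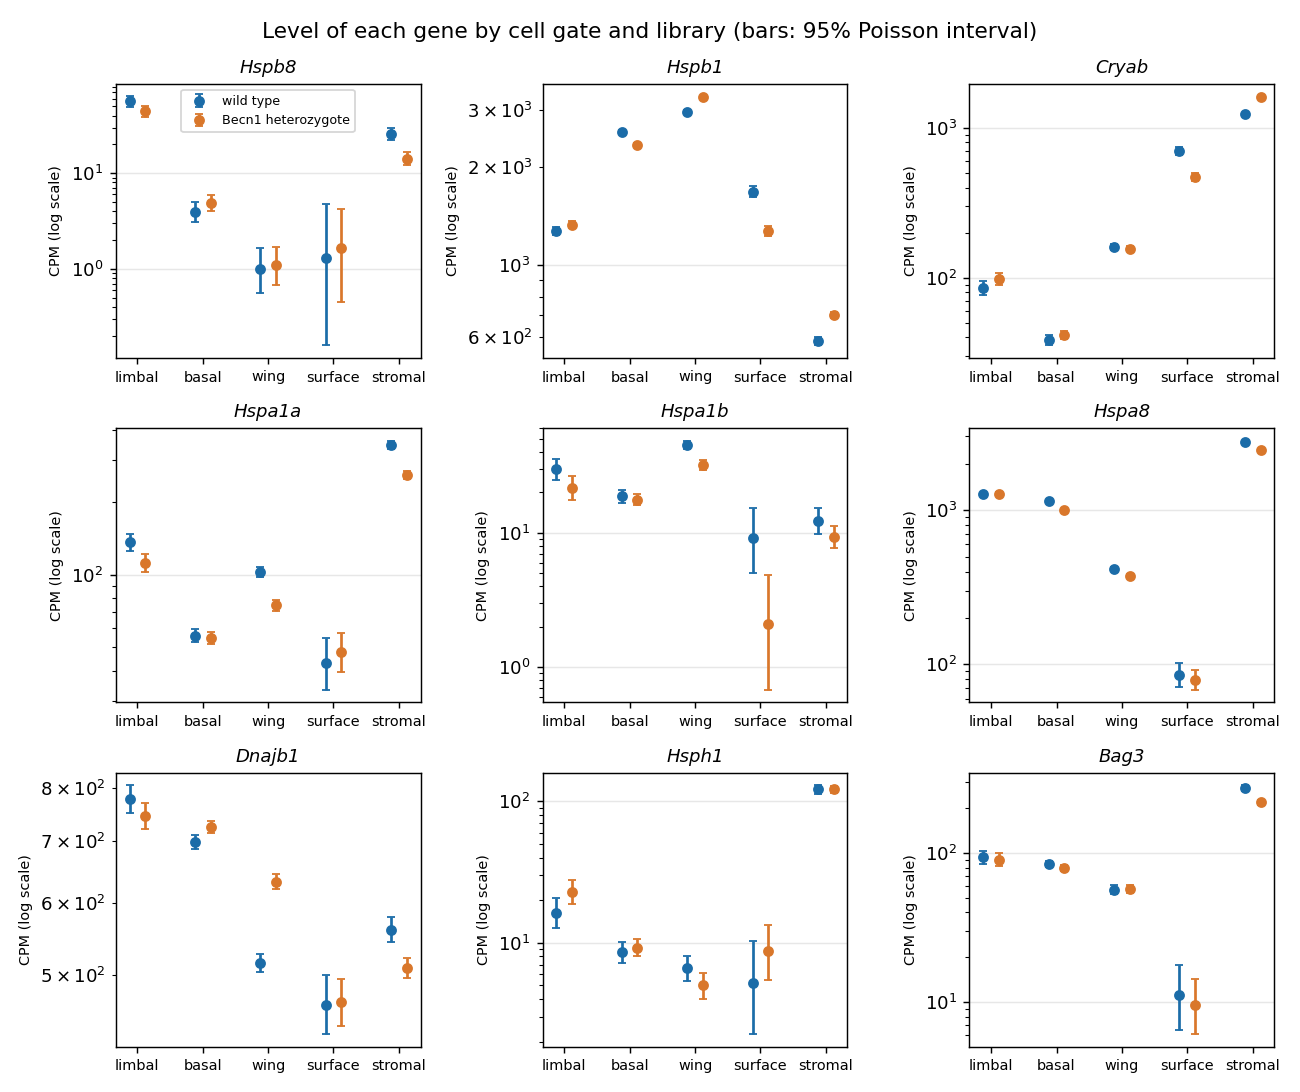
Level of each gene in CPM (log axis, a different range in each panel) by gate, with 1 point per library and bars for the 95% Poisson interval of the summed counts. Hspb8 was highest in limbal cells, Hspb1 in wing cells, and Cryab, Hspa1a, Hspa8, Hsph1 and Bag3 in stromal cells, in both libraries.

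Hspb8, whose product is the small heat shock protein partner of BAG3, was highest in limbal and next in stromal cells. In the wild-type library it stood at 56.4 CPM (49.4 to 64.0) in limbal, 3.96 CPM in basal, 0.995 CPM in wing, 1.31 CPM in surface and 25.8 CPM (22.1 to 29.9) in stromal cells. In the heterozygote library the levels were 44.3 CPM (38.5 to 50.9), 4.90, 1.10, 1.67 and 14.2 CPM (12.1 to 16.5) in the same order. The limbal and stromal levels lay above those of the other gates in both libraries, and the surface levels rested on 2 and 4 UMIs and could not be told from the wing levels at this depth. The limbal level was 14.2 times the basal level in the wild-type library (log2 ratio 3.82, 3.44 to 4.24) and 9.03 times in the heterozygote (log2 ratio 3.18, 2.83 to 3.53). Basal cells are partly cells that also met the limbal rule: over basal cells without a single Gpha2 UMI the log2 ratio was 4.32 and 3.87.

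After each cell had been thinned to 5000 UMIs, 20.8% (15.7 to 26.6) of wild-type and 16.1% (12.5 to 20.2) of heterozygote limbal cells had an Hspb8 UMI, against 2.21% and 1.94% of basal and 0.385% and 0.715% of wing cells. Without thinning the limbal shares were 46.8% and 31.3%, at median depths of 14566 and 10217 UMIs, and the wing shares 2.70% and 1.84%, at 23199 and 15470 UMIs. The limbal share was above the wing share although wing cells were deeper, and how much of the wing share is free RNA was not tested. The limbal share with a UMI rose with depth, so it does not give the share of limbal cells that express Hspb8.

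Stromal Hspb8 sat in a small set of cells. Of the genes compared over stromal cells, Clec3b, which encodes the plasminogen-binding protein tetranectin, followed it most closely (Pearson r of log2(CPM + 10) 0.65 in 556 and 0.51 in 1337 cells), followed by Pi16, a peptidase inhibitor gene (0.63 and 0.47). Cells with a Clec3b UMI after thinning were 46 of 556 (8.27%) and 63 of 1337 (4.71%), and they held 71.6% and 57.3% of all stromal Hspb8 UMIs. The split by Clec3b was chosen after these correlations were seen. Hspb8 stood at 268 and 219 CPM in these cells and at 7.88 and 6.29 CPM in the other stromal cells. Kera, the keratocan gene that marks keratocytes, was at 369 and 512 CPM in the cells with Clec3b and at 4123 and 3424 CPM in those without, so the Hspb8-rich cells were poor in the keratocyte marker.

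Hspb1, the gene of the small heat shock protein HSP27, ran along the epithelium. Its wild-type levels were 1271 CPM (1237 to 1306) in limbal, 2569 CPM (2545 to 2593) in basal, 2958 CPM (2931 to 2986) in wing, 1678 CPM (1614 to 1744) in surface and 584 CPM (566 to 603) in stromal cells. The heterozygote levels were 1327, 2341, 3275, 1269 and 701 CPM. In both libraries wing stood above basal and basal above every other gate, while limbal was below surface in the wild type and the limbal and surface intervals overlapped in the heterozygote. Limbal cells had about 0.495 and 0.567 times the basal level (log2 ratio -1.02 and -0.82), which went opposite to Hspb8. Thinned basal cells had an Hspb1 UMI in 99.7% and 99.5% of cases. In stromal cells, Hspb1 was at 22.7% and 29.9% of its basal level, more than the 4.16% and 6.28% of Krt12, and the top 10% of stromal cells by Hspb1 held 49.5% and 43.7% of its UMIs.

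Within gates Hspb1 moved with genes of corneal epithelial differentiation. Among basal cells the closest genes were Aldh3a1, a corneal aldehyde dehydrogenase (r 0.31 in 859 and 0.36 in 1543 cells), Slurp1, a secreted immune modulator (0.34 and 0.29), and Krt12 (0.26 and 0.31). Krt12 set the basal gate, so the range of Krt12 there is cut off from below.

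Cryab was highest in stromal cells and, within the epithelium, in surface cells. Its wild-type levels were 85.1 CPM (76.5 to 94.5) in limbal, 38.1 CPM (35.3 to 41.2) in basal, 160 CPM (154 to 167) in wing, 702 CPM (660 to 745) in surface and 1237 CPM (1211 to 1264) in stromal cells, and the heterozygote levels 98.5, 41.3, 157, 470 and 1609 CPM. The order basal, limbal, wing, surface, stromal was the same in both libraries, and no neighbouring intervals overlapped. The stromal level was 32.4 and 39.0 times the basal level. Dcn in basal cells was 0.441% and 0.564% of its stromal level and Cryab 3.08% and 2.56%, while in surface cells Dcn was at 0.215% and 0.367% of the stromal level and Cryab at 56.7% and 29.2%.

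Lens RNA was looked for because αB-crystallin is a lens protein. Of 7 lens genes, 6 were at 0 in surface cells of both libraries, and Cryaa, the αA-crystallin gene, stood at 25.5 CPM (39 UMIs in 10 of 54 cells) and 5.84 CPM (14 UMIs in 9 of 117 cells). In stromal cells Cryaa had 1 and 4 UMIs (0.147 and 0.346 CPM) and 5 of the 7 lens genes were at 0 in each library. The 7 summed to 8.51 and 5.89 CPM there, so most of that sum was not Cryaa. Hspb2, which overlaps Cryab on the other strand on chromosome 9, was at 6.46 and 7.01 CPM in stromal cells and at most 3.26 CPM elsewhere. Whether the counting used the strand is not given in the sources used here. Mgp, Myoc and Chil1, the markers of trabecular or ciliary tissue, summed to 4491 and 6460 CPM in stromal cells, and their part in stromal Cryab was not tested.

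Cryab was also uneven inside its high gates. The median stromal cell held 306 and 349 CPM and the 90th percentile cell 3349 and 5030 CPM, and the top 10% of stromal cells held 62.5% and 60.2% of Cryab UMIs. Among wing cells Cryab rose with Cysrt1 (r 0.58 in 519 and 0.49 in 979 cells), with the glutathione transferase gene Gsto1 (0.59 and 0.48) and with Nccrp1 (0.55 and 0.47), and it went against Hspa8 (r -0.37 and -0.25). These wing and stromal correlations lie outside the naming rule for genes and were picked after they were seen.

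Hspa1a and Hspa1b encode the same stress-inducible HSP70 and are near-identical copies on chromosome 17, so how reads were split between them is uncertain. Their sum stood at 166 CPM (154 to 179) in limbal, 74.7 CPM (70.6 to 78.9) in basal, 148 CPM (142 to 154) in wing, 52.2 CPM (41.4 to 65.0) in surface and 358 CPM (344 to 373) in stromal cells of the wild-type library, and at 134, 72.6, 107, 50.1 and 269 CPM in the heterozygote. Stromal was highest, limbal next and surface lowest in both. The limbal and wing intervals touched in the wild type and did not overlap in the heterozygote.

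As counted, the copies differed in where they were high. Hspa1a stood at 136, 55.9, 103, 43.1 and 346 CPM in wild-type limbal, basal, wing, surface and stromal cells, and at 112, 54.9, 74.7, 48.0 and 259 CPM in the heterozygote. Hspa1b stood at 29.7, 18.8, 45.0, 9.14 and 12.3 CPM and at 21.7, 17.7, 32.1, 2.09 and 9.35 CPM. Hspa1a thus had its highest level in stromal cells, where Hspa1b was below its basal level (log2 stromal over basal -0.60 and -0.92, against 2.63 and 2.24 for Hspa1a). Gm20481, which overlaps Hspa1a on the other strand, had at most 2 UMIs in any gate.

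Stromal Hspa1a came from few cells. The median stromal cell had 0 CPM in both libraries, and the top 10% of cells held 88.1% and 92.5% of the UMIs. After thinning, 25.2% (21.6 to 29.0) and 19.1% (17.0 to 21.3) of stromal cells had an Hspa1a UMI, against 35.1% and 23.7% without thinning. In basal cells, where the summed level was lower, the thinned shares were 20.6% and 18.1%, so the share of cells with a UMI differed less between the gates than the summed level.

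Hspa8, the constitutive HSP70, fell along the epithelium. It stood at 1264 CPM (1230 to 1299) in limbal, 1142 CPM (1126 to 1158) in basal, 418 CPM (407 to 428) in wing, 85.5 CPM (71.5 to 101) in surface and 2781 CPM (2742 to 2821) in stromal cells of the wild-type library. The heterozygote levels were 1281, 1008, 376, 79.2 and 2445 CPM, and the order of gates was the same. Every thinned wild-type stromal cell and 99.8% of the heterozygote ones had an Hspa8 UMI, against 31.5% and 27.4% of surface cells, which were the deepest. The top 10% of stromal cells held 26.6% and 27.6% of Hspa8 UMIs, an even spread beside that of Hspa1a.

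Dnajb1, the HSP40 co-chaperone that delivers clients to HSP70, was in CPM the most even of the 9 genes across gates. Its wild-type levels were 779 CPM (753 to 807) in limbal, 699 CPM (687 to 712) in basal, 516 CPM (504 to 527) in wing, 464 CPM (431 to 499) in surface and 561 CPM (543 to 579) in stromal cells, and the heterozygote levels 746, 725, 633, 467 and 509 CPM. In CPM the surface level was lowest in both libraries, and the places of wing and stromal cells were exchanged between them. The low place of surface cells depends on the scaling. All genes had a median log2 ratio of surface over wing of -1.30 and -1.25. With size factors that take this shift out, Dnajb1 surface over wing turned from -0.15 and -0.44 to 1.15 and 0.81. In the heterozygote the limbal and basal intervals overlapped.

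Hsph1, the HSP110 nucleotide exchange factor of HSP70, was a stromal gene at 121 CPM (113 to 130) and 121 CPM (115 to 127). It stood at 16.3 and 22.8 CPM in limbal, 8.56 and 9.25 CPM in basal, 6.63 and 5.01 CPM in wing and 5.22 and 8.76 CPM in surface cells. The stromal level was 14.1 and 13.0 times the basal level, and 40.1% and 39.0% of thinned stromal cells had a UMI, against 4.42% and 4.60% of basal cells. The wing and surface intervals overlapped in both libraries.

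Bag3, the co-chaperone that links HSP70 and HSPB8 to autophagy, stood at 94.2 CPM (85.2 to 104) in limbal, 84.7 CPM (80.4 to 89.2) in basal, 56.8 CPM (53.0 to 60.7) in wing, 11.1 CPM (6.46 to 17.8) in surface and 273 CPM (261 to 286) in stromal cells of the wild-type library, and at 90.6, 79.4, 57.3, 9.59 and 220 CPM in the heterozygote. The order of gates was the same in both, with overlapping limbal and basal intervals in each. Limbal cells, where Hspb8 was highest, did not hold more Bag3 than basal cells beyond 1.14 times. In stromal cells Bag3 was widespread, with a UMI in 69.6% and 63.9% of thinned cells, and Hspb8 was in 9.53% and 5.46%.

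**Figure D2:**
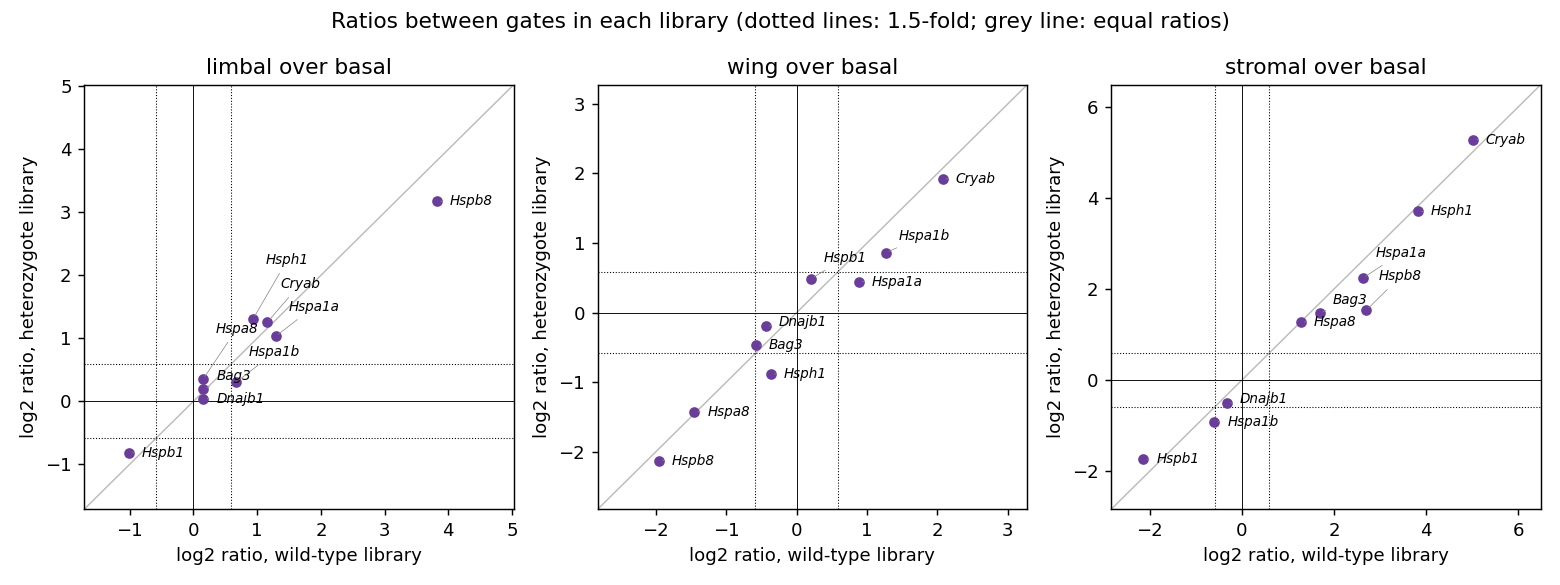
Log2 ratio of each gene between 2 gates in the wild-type (x axis) and heterozygote library (y axis), with 1 point per gene. Dotted lines mark 1.5-fold either way and the grey line equal ratios; all 9 genes lie on the same side of 0 in both libraries in each of the 3 panels.

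Counted over the 9 genes without a filter on level, and against a ratio of at least 1.5 in both libraries, 4 were higher in limbal than in basal cells (Hspb8, Cryab, Hspa1a and Hsph1) and 1 was lower (Hspb1). Of the 4094 genes that had a mean over both gates of 20 CPM or more, 6.11% were past this fold higher and 5.28% lower, and these genes are meant by all genes in the shares that follow. Among members of at least 20 CPM 3 were higher, without Hsph1, and with no filter on level 15.5% of genes were higher and 6.10% lower. The log2 ratios were 1.16 and 1.26 for Cryab, 1.29 and 1.03 for Hspa1a and 0.94 and 1.31 for Hsph1. Over limbal cells Dcn, the stromal gate gene, was the gene closest to Cryab (r 0.22 in 231 and 0.18 in 367 cells). This correlation lies outside the naming rule, and the part of stromal RNA in limbal Cryab was not tested. Hspa8 (0.15 and 0.35), Dnajb1 (0.16 and 0.041) and Bag3 (0.15 and 0.19) stayed inside the fold, and Hspa1b (0.67 and 0.30) passed it in the wild-type library only.

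Between wing and basal cells, 2 genes were higher (Cryab, 2.07 and 1.92, and Hspa1b, 1.26 and 0.86) and 2 lower (Hspb8, -1.96 and -2.13, and Hspa8, -1.45 and -1.42), where 14.8% of all genes were higher and 12.1% lower (17.0% and 13.3% with no filter). Between surface and wing cells 2 were higher and 5 lower, against 16.0% higher and 63.2% lower over all genes (13.2% and 61.1% with no filter), whose median log2 ratio was itself -1.30 and -1.25. Against that shift Cryab was higher (2.13 and 1.59) and Hspa8 (-2.28 and -2.24), Bag3 (-2.31 and -2.55) and Hspa1b (-2.25 and -3.81) lower. Hspb8 was the second of the higher genes, from 2 and 4 surface UMIs, with intervals of the log2 ratio that cross 0 in both libraries. Hspb1 (-0.82 and -1.37) and Hspa1a (-1.25 and -0.63), the other two counted as lower, lay near the shift or above it. With size factors that take the shift out they stood at 0.49 and 0.058 in the wild type and at -0.12 and 0.62 in the heterozygote, and no longer counted as lower. Dnajb1, inside the fold at -0.15 and -0.44, stood at 1.15 and 0.81 with these size factors and then counted as higher.

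Between stromal and basal cells 6 genes were higher and 2 lower, where 30.5% of all genes were higher and 24.7% lower. With no filter on level these shares were 39.2% and 20.8%, and among members of at least 20 CPM 5 were higher and 1 lower. The higher ones were Cryab (5.02 and 5.28), Hsph1 (3.82 and 3.71), Hspb8 (2.70 and 1.53), Hspa1a (2.63 and 2.24), Bag3 (1.69 and 1.47) and Hspa8 (1.28 and 1.28). The lower ones were Hspb1 (-2.14 and -1.74) and Hspa1b (-0.60 and -0.92). Dnajb1 (-0.32 and -0.51) stayed inside the fold. Over heterozygote cells of at least 8089 UMIs, the lower limit of the wild-type library, the Hspb8 ratio of that library was 0.11 and no longer past the fold.

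**Figure D3:**
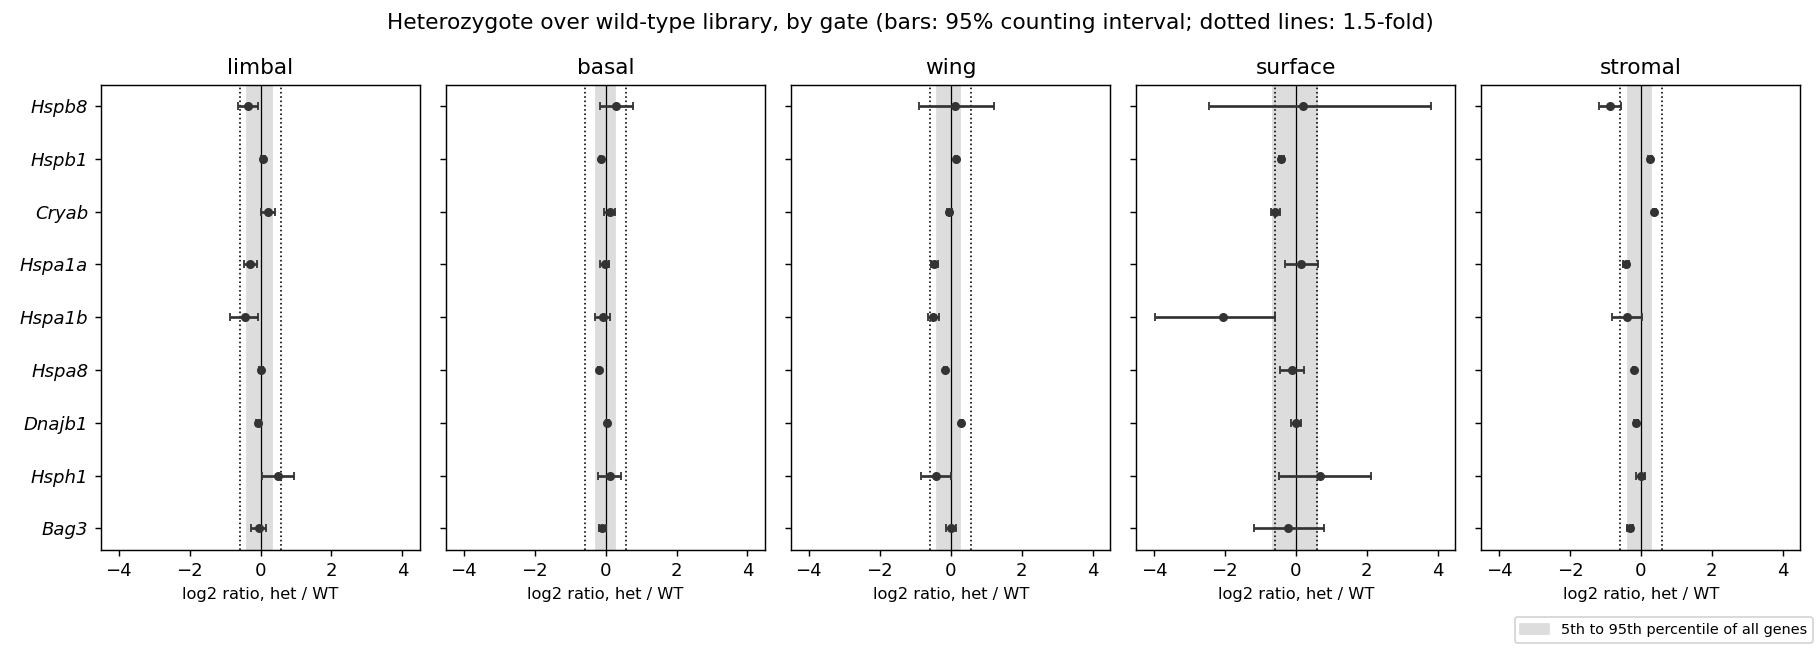
Log2 ratio of the heterozygote over the wild-type library for each gene and gate, with 95% counting intervals; dotted lines mark 1.5-fold and the grey band the 5th to 95th percentile of all genes of at least 20 CPM. In limbal, basal and wing cells all 9 points lie between the dotted lines.

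Beclin 1 acts in the autophagy to which HSPB8 and BAG3 pass clients, and the heterozygote library was compared with the wild-type one within each gate. No gene of the 9 was past 1.5-fold in limbal, basal or wing cells, where 0.944%, 1.13% and 0.514% of all genes were higher and 1.32%, 0.41% and 1.17% lower. The medians of the 9 log2 ratios were -0.056, -0.027 and -0.035, beside -0.0078, -0.012 and -0.042 over all genes. In limbal cells Hspb8 was at a log2 ratio of -0.35 (-0.62 to -0.069) and Hsph1 at 0.48 (0.031 to 0.95), and the summed Hspa1a and Hspa1b at -0.31 (-0.47 to -0.16). Bag3 was at -0.056 in limbal, -0.093 in basal and 0.013 in wing cells. Under some of the alternative settings given at the end, genes did pass 1.5-fold. In limbal cells the log2 ratio reached -0.62 for Hspa1a, -0.61 for Hspa1b and 0.89 for Hsph1. In wing cells it reached 0.67 for Hspb8, which stood near 1 CPM there.

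In wing cells the sum of Hspa1a and Hspa1b had a log2 ratio of -0.47 (-0.56 to -0.38) and Dnajb1 one of 0.29 (0.25 to 0.34), both outside the 5th to 95th percentile of all genes (-0.40 to 0.27). These are differences between 2 libraries. The immediate early list, 19 genes such as Fos and Egr1 that cells switch on within minutes of handling, had a median of -0.18 in wing cells with 16 of 19 below 0, and its part in these differences was not tested.

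In surface cells, the smallest gate, Hsph1 was past the fold upward (0.69, -0.49 to 2.13) and Hspa1b downward (-2.04, -3.96 to -0.58), where 5.18% and 6.55% of all genes were. Both members were under 20 CPM, and with no filter on level 26.6% of genes were past the fold upward and 26.4% downward. They rested on 8 and 21 UMIs for Hsph1 and on 14 and 5 for Hspa1b. Cryab was just inside the fold at -0.58 (-0.70 to -0.45).

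In stromal cells Hspb8 was the only one of the 9 past the fold, downward at a log2 ratio of -0.86 (-1.18 to -0.55), where 1.04% of all genes were lower and 0.935% higher (16.3% and 13.7% with no filter on level). Cells with Clec3b were also fewer, at 8.27% (wild type) and 4.71% (heterozygote) of stromal cells. The Hspb8 ratio was -0.29 (-0.70 to 0.10) within the cells with Clec3b and -0.33 (-0.87 to 0.23) within those without, both inside the fold. The ratio also moved with the depth of the cells kept. Clec3b cells had medians of 9571 and 6359 UMIs, and 9 of the 63 heterozygote ones reached the 8089 UMIs of the shallowest wild-type barcode. Over stromal cells of at least that depth Hspb8 stood at 25.8 CPM in 556 wild-type and 4.98 CPM (3.49 to 6.90, 36 UMIs) in 697 heterozygote cells, a log2 ratio of -2.36. The size of the stromal difference in Hspb8 therefore cannot be told apart from which cells were kept in each library.

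Of the other genes in stromal cells, Cryab was at 0.38 (0.34 to 0.42), Hspb1 at 0.26 (0.21 to 0.32), Hsph1 at -0.0053 (-0.13 to 0.12), Dnajb1 at -0.14, Hspa8 at -0.19, Bag3 at -0.31 (-0.40 to -0.22) and the sum of Hspa1a and Hspa1b at -0.41 (-0.49 to -0.34). The median of the 9 was -0.19, beside -0.0034 over all genes. All 19 immediate early genes were below 0 in stromal cells, with a median of -0.36, and none of them was past the fold.

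**Figure D4:**
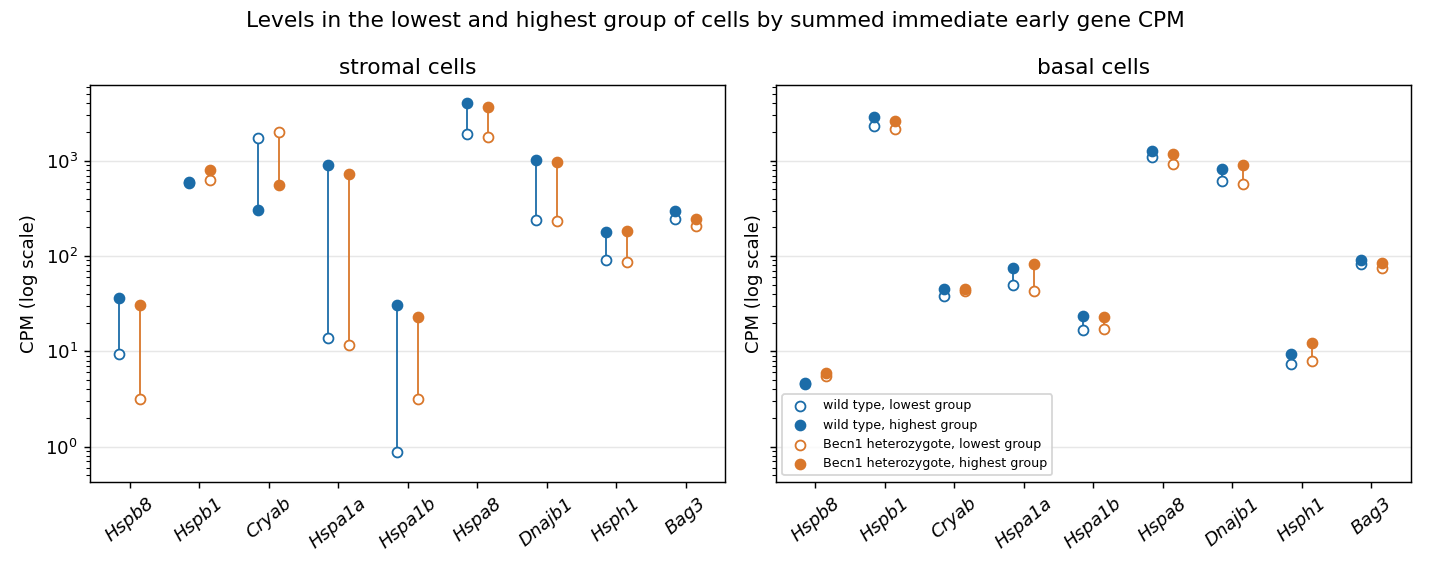
Level of each gene in CPM (log axis) in the lowest (open) and highest (filled) of 3 equal groups of stromal and of basal cells, ranked by the summed CPM of 19 immediate early genes, per library. In stromal cells Hspa1a stood at 13.7 and 11.8 CPM in the lowest and at 906 and 723 CPM in the highest group, and Cryab ran the other way.

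Tissue digestion at 37 °C is known to switch on immediate early and heat shock genes. The cells of each gate and library were ranked by their summed immediate early level and cut into 3 equal groups. All cells had been digested, and the part of digestion in these contrasts was not tested. In stromal cells 6 of the 9 genes were past 1.5-fold higher in the highest group than in the lowest and 1 lower, in both libraries, where 11.5% of all genes outside the ranking list were higher and 4.62% lower (22.4% and 4.43% with no filter on level). Hspa1a stood at 13.7 and 11.8 CPM in the lowest and 906 and 723 CPM in the highest group, a log2 ratio of 6.03 (5.54 to 6.61) and 5.93 (5.52 to 6.40). Dnajb1 went from 238 and 231 CPM to 1010 and 973 CPM (log2 ratio 2.09 and 2.07), Hspa8 from 1931 and 1779 CPM to 4045 and 3639 CPM (1.07 and 1.03) and Hsph1 by 0.96 and 1.09. Bag3, at 0.30 and 0.24, and Hspb1, at -0.033 and 0.35, stayed inside the fold. Cryab fell by 2.52 and 1.86 on the log2 scale, from 1754 and 2024 CPM to 305 and 556 CPM. The lowest and highest groups had like depths, with medians of 11868 and 11416 UMIs (wild type) and 8233 and 8240 (heterozygote). They differed in markers of stromal cell types. Kera was at 4668 and 3874 CPM in the lowest and 2774 and 2242 CPM in the highest group. Pi16 was at 53.0 and 0.785 CPM in the lowest and 431 and 248 CPM in the highest group. The part of cell make-up in these contrasts was not tested.

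Hspb8 also differed between these groups, by 1.95 and 3.23, and so did Clec3b, with 48.7% and 71.3% of its UMIs in the highest group. Hspa1a, with 88.3% and 95.9% of its stromal UMIs in the highest group, had a log2 ratio of heterozygote over wild type of -0.32 (-0.41 to -0.24) within that group and -0.22 (-0.91 to 0.49) within the lowest. Hspb8 was at -0.27 (-0.68 to 0.16) in the highest group and -1.54 (-2.72 to -0.47) in the lowest, there from 21 and 12 UMIs. Cryab was at 0.86 (0.74 to 0.99), past the fold, in the highest group and at 0.21 (0.15 to 0.26) in the lowest.

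In the epithelial gates the ranking gave a smaller contrast: the median immediate early level went from 5962 to 11741 CPM in basal cells of the wild type and from 4138 to 26766 CPM in its stromal cells, and from 4470 to 9470 CPM and from 3163 to 21795 CPM in the heterozygote. In basal cells 1 gene of the 9 was past the fold upward in the wild type (Hspa1a, 0.59) and 3 in the heterozygote (Hspa1a, 0.91, Dnajb1, 0.65, and Hsph1, 0.63), and none downward, where 3.8% and 2.5% of all genes outside the ranking list were higher and 2.83% and 0.432% lower. In limbal cells 3 (wild type) and 7 (heterozygote) were higher and 0 lower, against 16.4% and 14.6% of all genes higher and 10.1% and 3.49% lower. In wing cells 2 and 6 were higher and 1 lower in each library, against 5.29% and 9.84% higher and 5.08% and 4.02% lower. The heterozygote wing count includes Hspb8 at 0.749 and 1.99 CPM (log2 ratio 1.29, -0.29 to 3.48). Hsph1 in the heterozygote basal count was also under 20 CPM, at 7.90 and 12.2 CPM. In surface cells 4 and 3 were higher and 2 and 0 lower, against 10.5% and 7.45% higher and 25.0% and 15.1% lower. Those groups held 18 and 39 cells each. Hspb8 and Hspa1b in both libraries and Hsph1 in the wild type counted as higher at 10.6 CPM or less, with intervals that cross 0. Surface Hspa1a went opposite ways, from 67.4 to 8.46 CPM in the wild type and from 22.1 to 83.4 CPM in the heterozygote. Member counts in these epithelial gates had no filter on level, while the shares are of genes of at least 20 CPM. In limbal cells Dnajb1 differed by 2.34 and 1.71, Hspa8 by 0.98 and 0.86 and Hspb1 by 0.88 and 1.04 in both libraries, while Hspa1a differed by 0.21 (wild type) and 1.66 (heterozygote). Hspb8 in limbal cells was at 0.069 (-0.39 to 0.53) and 0.48 (0.00049 to 0.97). In wing cells Cryab fell by 0.99 and 0.93 on the log2 scale, while Dnajb1 (1.16 and 0.69) and Hspa8 (0.69 and 0.98) were higher in the highest group.

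Over basal cells thinned to 5000 UMIs the 36 pairwise correlations lay between -0.076 and 0.11 in the wild type and between -0.057 and 0.15 in the heterozygote. Over stromal cells they lay between -0.18 and 0.42 and between -0.15 and 0.38. The highest there were those among the HSP70 genes and Dnajb1: Hspa1a and Hspa1b at r 0.38 and 0.38, Hspa1a and Hspa8 at 0.42 and 0.37, Hspa1a and Dnajb1 at 0.31 and 0.31, and Hspa8 and Dnajb1 at 0.37 and 0.30. Cryab lay at -0.18 and -0.15 with Dnajb1 and at -0.18 and -0.13 with Hspa1a, and Bag3 at -0.0090 and 0.014 with Hspa1a. Hspa1a in stromal cells followed Fos (0.50 and 0.46), Zfp36 (0.48 and 0.42) and Klf2 (0.41 and 0.39), of which the last 2 encode an mRNA decay factor and a transcription factor of the immediate early list. Cells of a library share its digestion, its free RNA and its depth, and in sparse counts low correlations have no weight.

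Over basal cells, the gate fixed for naming the genes most like each member, Dnajb1 lay closest to the metallothionein gene Mt1 (r 0.24 and 0.23) and the growth factor gene Hbegf (0.23 and 0.18), Hspa8 to Tkt, which encodes transketolase (0.22 and 0.21), and Hspa1a to Id2 (0.22 and 0.19), an inhibitor of helix-loop-helix transcription factors. Cryab lay closest to Igfbp7 (0.18 and 0.16) and the limbal keratin gene Krt15 (0.14 and 0.12). For Hspb8, Hsph1, Hspa1b and Bag3 the closest genes reached at most 0.15 in either library.

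Over the 10 sums of gate and library, whose points share libraries and whose gates were set by the genes Gpha2, Krt14, Krt12, Lce3a and Dcn, Hspb8 was closest to Tpm1 (r 0.97), the gate gene Gpha2 (0.96) and Smad1 (0.94). Hspb1 was closest to Klf3 (0.99), Ggta1 and Tmprss11d, Cryab to Creb3 (0.99), Znrd1 and S100a1, and Hspa1a to mt-Nd5 (0.98), Klf2 and Nr4a2. Hspa1b was closest to Aftph (0.96), Vta1 and Nck1, Hspa8 to Pdpn, Ngfrap1 and Efnb1 (0.99 for the last), Dnajb1 to Bcl10 (0.96) and Runx1, Hsph1 to Col4a2, Emp3 and Tfap2b (0.99 for the last), and Bag3 to Ext2, Ing2 and Txnl1 (0.99 for the last).

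The other chaperones of the cell showed other patterns. Of the HSP90 chaperone and its co-chaperones, 0 of 11 measured genes were past the fold between limbal and basal cells in both libraries, against 1 of 12 higher and 4 lower between wing and basal cells. The shares over all genes, given above, were 6.11% higher and 5.28% lower for limbal over basal, 14.8% and 12.1% for wing over basal and 30.5% and 24.7% for stromal over basal. The lower ones included the HSP90 genes Hsp90aa1 (-0.62 and -0.59) and Hsp90ab1 (-0.80 and -0.95), and the higher one was the steroid receptor co-chaperone Fkbp5 (0.94 and 0.94), which was also higher in stromal cells (1.71 and 1.89). Of the other HSP70 partners, 0 of 12 were past the fold in limbal cells, and in wing cells 1 of 14 was higher (Bag2, 2.36 and 2.05) and 2 were lower (Hspa4 and Dnaja1). In stromal cells 2 were higher (Bag2, 2.19 and 1.94, and Dnajb2) and 3 lower (Dnaja4, Dnajc7 and Hspbp1).

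Of the CCT chaperonin, which folds actin and tubulin, 4 of 7 genes were lower in wing than in basal cells (Tcp1, Cct2, Cct4 and Cct5) and 3 of 7 in stromal cells (Cct4, Cct5 and Cct7), with none higher, beside 12.1% and 24.7% lower over all genes. Between surface and wing cells 7 of 7 were lower, where 63.2% of all genes were. Of the mitochondrial chaperones 3 of 5 were lower in wing cells (Hspd1, -0.92 and -1.09, Hspe1, -0.77 and -0.99, and Hspa9, -1.03 and -1.09) and 0 of 5 were past the fold in stromal cells. Of the endoplasmic reticulum chaperones 9 of 11 were higher in stromal cells, where 30.5% of all genes were, among them the collagen chaperone gene Serpinh1 (6.24 and 6.03), the HSP70 gene Hspa5 (1.27 and 1.31) and Calr (1.17 and 1.00), and Serpinh1 alone of 10 was higher in limbal cells (1.43 and 1.09). The heat shock factor genes Hsf1, Hsf2 and Hsf4 did not reach 20 CPM in these comparisons. Hsbp1, which encodes a binding protein of heat shock factor and was listed with them, was past the fold in none of these 3 comparisons in both libraries. Of 7 other genes listed with the small heat shock proteins only Hspb11 reached 20 CPM in these comparisons, lower in stromal cells (-0.77 and -0.76). Hspb11 was listed by its symbol, and whether its product acts as a small heat shock protein was not examined.

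Of the genes around BAG3-linked autophagy, the receptor gene Sqstm1 was lower in wing (-0.93 and -0.67) and stromal cells (-1.84 and -1.72), and the autophagosome gene Gabarapl1 was higher in stromal cells (2.85 and 3.05). Between the libraries, 0 genes of these chaperone and autophagy lists were past the fold in limbal, basal, wing or stromal cells. The lowest and highest ratios of heterozygote over wild type were Dnajb4 (-0.30) and Clpp (0.48) in limbal cells, Pdia4 (-0.34) and Map1lc3b (0.22) in basal cells, and Pdia4 (-0.46) and Bag2 (0.29) in stromal cells. In wing cells the lowest was Hspb11 (-0.44). In surface cells Dnajb9 (-0.72) and Cct5 (0.65) were past the fold.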

How the data were processed

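The authors deposited raw UMI counts, 1 matrix of genes by barcodes for each library. Per the submitters' processing notes Cell Ranger 2.1.1 and the mm10 build were used. How barcodes were called, the annotation and the strand setting are not stated in these sources. Doublets were marked per library with Scrublet in scanpy 1.11.5 at 0.8% per 1000 barcodes, which removed 51 (2.03%) and 213 (4.13%) barcodes and left 2462 and 4942 cells. Counts were summed over each gate and divided by the gate's total UMIs (CPM), with exact Poisson intervals. Ratios had 0.5 added to each count and exact conditional intervals. These were run on simulated Poisson counts, the model that the intervals assume, so that check does not cover the spread between cells. Shares of cells have exact (Clopper-Pearson) intervals, and correlations used log2(CPM + 10), both over cells thinned to 5000 UMIs. A gene was past the fold at 1.5 times, and background shares used genes whose mean over the sums compared was 20 CPM or more. The genes named as most like a member were the 3 closest over the 10 sums and over basal cells. Of the other lists, the genes past the fold in both libraries and the lowest and highest ratios between libraries were named. A few values that these rules name are not reported here. Members and lists were chosen with earlier results of these data known. Alternatives were another scaling, other gates, all barcodes, thinned cells, matched depth and another fold. Further tools were pandas 2.3.3, matplotlib 3.10.9, scipy 1.17.1, numpy 2.4.6 and Python 3.11.15. Positions are from GENCODE vM21 and RefSeq (GRCm38.p6).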

Additional observations from a re-analysis of the deposited data

Results flagged for a closer look

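The log2 ratio of heterozygote over wild type had opposite signs in different gates for 3 of the 9 genes, with intervals for counting error that kept clear of 0. With 1 library per genotype these differences between gates were not tested. For Hspb1 the log2 ratio of heterozygote over wild type was 0.063 in limbal, 0.15 in wing and 0.26 in stromal cells, against -0.13 in basal and -0.40 in surface cells. For Cryab it was 0.21 in limbal and 0.38 in stromal cells, against -0.58 in surface cells. For Dnajb1 it was 0.053 in basal and 0.29 in wing cells, against -0.14 in stromal cells. All 11 values lie inside 1.5-fold. The limbal value of Hspb1 turned to -0.041 with cells of 1 gate only, to -0.036 with gate thresholds 1.5 times higher and to -0.024 over thinned cells.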

How the results depend on the processing

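No paired analysis was possible because each genotype has 1 library. Across 8 alternatives, 712 of 936 ratios of single genes moved by no more than their counting interval, and 8 that had been past 1.5-fold changed sign, all 8 in the surface gate; the cause was not tested. Of the ratios inside 1.5-fold, a sign change was met 16 times in the surface gate and 23 times elsewhere, there for ratios of at most 0.30 in size. With median-of-ratios size factors, which shift surface over wing by -1.30 and -1.25, Hspb1 was at 0.49 in the wild-type library and Hspa1a at 0.058 and 0.62, and 4 genes were higher and 3 lower. Dnajb1, at 1.15 and 0.81, was among the higher ones. Hspa1a surface over wing in the heterozygote was 0.10 as a mean of single cells and 0.076 over thinned cells. Hspb8 surface over wing was -0.36 (wild type, gate thresholds 1.5 times lower) and -0.84 (heterozygote, thinned), and Hspa1b heterozygote over wild type in surface cells was 0.10 with thresholds 1.5 times lower.

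The counts of genes past the fold that differed by more than 1.5 times from those given, or from 0, were these. In surface cells, heterozygote over wild type, 2 were higher and 0 lower with all barcodes, 2 lower with cells of 1 gate only, 0 higher and 2 lower with thresholds 1.5 times higher, 0 lower with thresholds 1.5 times lower, 0 higher with means of single cells, 0 higher and 3 lower over thinned cells, 0 higher at matched depth or at a fold of 2, and 0 in either direction among members of at least 20 or 100 CPM. In limbal cells it was 1 higher and 2 lower with cells of 1 gate only, 1 lower with thresholds 1.5 times lower and 1 higher over thinned cells, and in wing cells 1 higher over thinned cells. In stromal cells it was 0 lower at a fold of 2 or from 100 CPM, and in 3 equal groups by immediate early level, added after seeing the data, 1 higher in the lowest and 1 higher and 0 lower in the highest. For surface over wing 1 was higher with all barcodes, cells of 1 gate, thresholds 1.5 times lower, means of single cells, thinned cells, a fold of 2 or members of at least 20 or 100 CPM, and the number lower was 3 at a fold of 2 and 2 from 100 CPM. For stromal over basal 1 was lower with thresholds 1.5 times higher, thinned cells, a fold of 2 or members from 20 or 100 CPM. For limbal over basal 0 were lower at a fold of 2 and 0 higher from 100 CPM. For wing over basal 1 was higher at a fold of 2 and 0 from 100 CPM, and 1 was lower from 20 or 100 CPM.

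The surface gate held the fewest cells, 54 and 117. Its Hspb8 level rests on 2 and 4 UMIs and Hspa1b on 14 and 5.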
